A study of Mus musculus with 8 samples.

Results

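Transcripts of fibrillar collagens and of 1 fibril-associated collagen were followed in mouse peritoneal mesothelial cells (MCs), the lining cells of the abdominal cavity, with and without cyclic stretch and with and without caveolin-1. The 8 genes, Col1a1, Col1a2, Col3a1, Col5a1, Col5a2, Col5a3, Col11a1 and Col12a1, were taken by name from the 13687 genes of the deposited table. The rule uses the names alone, but the names were chosen with earlier results of these data known. All 8 passed the filter on low values and were among the 13665 genes tested. Together they took between 1.59% and 3.26% of the reads of a culture.

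Fibrillar collagens are triple helices that are secreted as procollagens, trimmed at their ends and packed side by side into the fibrils that carry tension in connective tissue. Type I collagen makes up the bulk of most fibrils, type III is mixed in where a tissue must stretch, and types V and XI sit in the fibril core and set how fibrils start and how thick they become. Type XII collagen lies on the fibril surface. When MCs convert towards mesenchymal cells, as they do in peritoneal fibrosis, they become a source of this matrix.

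Primary MCs came from the peritoneum of 4 mice of the B6.Cg-CAV1tm1mls/J line, 2 CAV1-/- animals, which lack a functional Cav1 gene in every cell, and 2 WT littermates. Each mouse gave 1 culture left static and 1 culture stretched for 24 h after reaching confluence, so that the 4 groups (WT static, WT stretch, CAV1-/- static and CAV1-/- stretch) held 2 cultures each. Replicate numbers 1 and 2 name the 2 animals of a genotype, and their ages are not given in the sources used here. The study's account of stretching, written for human cells, names plates coated with type I collagen, and the settings used for the mouse cells are not given there.

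Libraries held 9777738 to 21203938 reads, and each of the 4 stretched libraries was deeper than every static one. Cav1, the deleted gene, stood at 247 to 764 TMM-normalized CPM (reads relative to the library total, CPM, after scaling of library totals by the trimmed mean of M-values, TMM) in the WT cultures and at 12.8 to 34.5 in the CAV1-/- cultures, below WT in all 4. The cultures also differed in the genes that mark cell types. The summed level of 11 mesothelial markers was 2959 to 3898 in WT and 854 to 1116 in CAV1-/- cultures, and 9 of the 11 were lower in all 4 CAV1-/- cultures than in any WT culture. Over all genes, CAV1-/- cultures lay below WT cultures without overlap in 20.8% in static culture and 15.9% under stretch, 2 cultures against 2. The share for 4 cultures against 4 was not computed in this direction. Krt8, a keratin of simple epithelia, and Lrrn4, a mesothelial surface protein, were called lower in CAV1-/- cells by limma in both genotype comparisons. There limma called 10 (static) and 8 (stretch) genes of all, and edgeR called Krt8 in both and Lrrn4 under stretch only. The limma fits take their spread from all 8 libraries, in which the 2 cultures of an animal deviated together. With only the 4 libraries of a comparison, limma called 0 genes of all in both. All 11 leukocyte markers were highest in both cultures of CAV1-/- replicate 1, where they summed to 4837 (static) and 4836 (stretch) against 73.9 to 463 in the other 6 cultures. The 9 fibroblast markers summed to 1136 to 1523 in the 4 cultures of the animals numbered replicate 2 and to 526 to 709 in those numbered replicate 1. Mfap4 was at 0 in both cultures of CAV1-/- replicate 1, but was low in the other 6 cultures as well (0.148 to 1.64). Of the 6 smooth muscle markers, 4 were highest in both cultures of CAV1-/- replicate 1 (summed level 8874 to 11168 there, 4011 to 8131 elsewhere). The most abundant of them were Acta2 (1932 to 6045) and Tagln (1889 to 3827). The paper uses alpha-SMA, the product of Acta2, as a marker of myofibroblasts derived from MCs, so that this list does not mark smooth muscle cells alone. The 5 endothelial markers summed to only 22.7 to 71.8. In such bulk libraries, fewer cells of a type and less RNA per cell cannot be told apart.

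**Figure D1:**
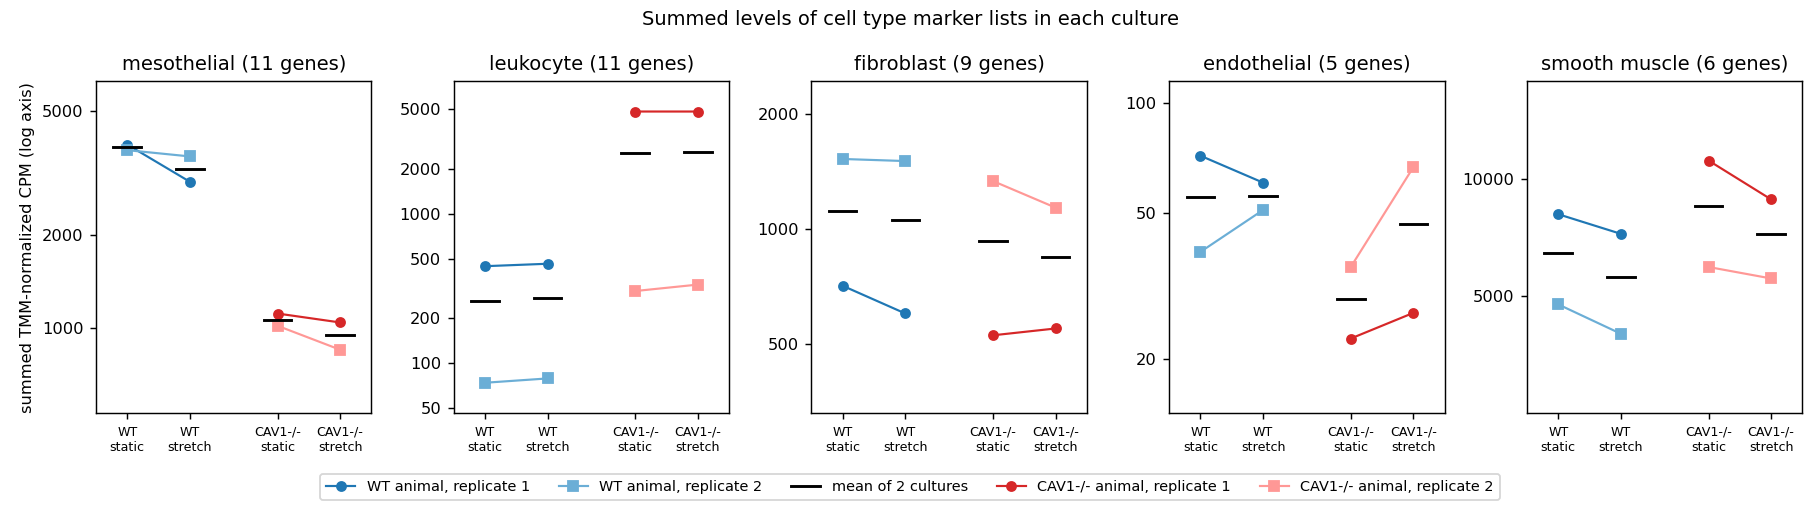
Summed TMM-normalized CPM (log axis) of the mesothelial, leukocyte, fibroblast, endothelial and smooth muscle marker lists in the 8 cultures, with lines joining the 2 cultures of an animal and bars at the mean of 2 cultures. Leukocyte markers reach 4837 in the cultures of CAV1-/- replicate 1, and mesothelial markers are lower in the 4 CAV1-/- cultures (854 to 1116) than in the 4 WT cultures (2959 to 3898).

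Positions follow GENCODE M21 on GRCm38. The type I genes are Col1a1 (chr11:94936224-94953042, plus strand, 51 exons in its longest transcript) and Col1a2 (chr6:4504814-4541544, plus strand, 52 exons). Col3a1 (chr1:45311538-45349706, plus strand, 51 exons) ends 24614 bases from Col5a2 (chr1:45374321-45503282, minus strand, 54 exons), so that these neighbours meet tail to tail. Col5a1 lies at chr2:27886425-28039514 (plus strand, 66 exons), Col5a3 at chr9:20770050-20815067 (minus strand, 67 exons), Col11a1 at chr3:114030540-114220718 (plus strand, 67 exons) and Col12a1 at chr9:79598991-79718831 (minus strand, 66 exons). Col5a1 spans the opposite-strand transcripts 2810430I11Rik and Gm13372, whose mean values were 2.06 and 2.19, and the library kit is not stated to keep strand.

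Promoter windows of 250 bases before the RefSeq start (GRCm38.p6) were given for 5 of the 8 genes, and 4 are shown because these genes had the widest or the most genotype-dependent changes described here. They are printed in the direction of the gene with 5 short motifs, searched on both strands, in capitals. The motifs were CCAAT, the box bound by NF-Y (33.8% of 32851 windows of this length hold it), TATAAA, the TATA box (12.4%), GGAATG, the core bound by TEAD factors (12.6%), CAGAC, the core bound by Smads (42.2%), and GGGCGG, the GC box bound by Sp1 (32.7%). No motif in these windows overlaps another.
Col3a1 (chr1:45311288-45311537, plus strand): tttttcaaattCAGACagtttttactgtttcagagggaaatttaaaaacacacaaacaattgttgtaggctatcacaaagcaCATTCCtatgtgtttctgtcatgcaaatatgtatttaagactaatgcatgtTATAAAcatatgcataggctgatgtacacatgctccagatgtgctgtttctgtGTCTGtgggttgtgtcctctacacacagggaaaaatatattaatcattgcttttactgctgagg
Col5a3 (chr9:20815068-20815317, minus strand): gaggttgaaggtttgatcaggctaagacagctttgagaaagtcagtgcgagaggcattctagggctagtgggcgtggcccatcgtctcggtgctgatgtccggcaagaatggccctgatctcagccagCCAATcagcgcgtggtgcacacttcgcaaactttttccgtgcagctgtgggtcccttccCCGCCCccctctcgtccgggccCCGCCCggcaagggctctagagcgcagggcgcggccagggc
Col11a1 (chr3:114030290-114030539, plus strand): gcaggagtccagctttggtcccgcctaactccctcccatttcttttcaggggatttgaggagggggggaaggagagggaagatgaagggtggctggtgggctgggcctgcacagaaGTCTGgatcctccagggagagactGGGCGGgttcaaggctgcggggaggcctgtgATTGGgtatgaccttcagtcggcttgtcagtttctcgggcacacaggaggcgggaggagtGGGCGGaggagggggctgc
Col5a1 (chr2:27886175-27886424, plus strand): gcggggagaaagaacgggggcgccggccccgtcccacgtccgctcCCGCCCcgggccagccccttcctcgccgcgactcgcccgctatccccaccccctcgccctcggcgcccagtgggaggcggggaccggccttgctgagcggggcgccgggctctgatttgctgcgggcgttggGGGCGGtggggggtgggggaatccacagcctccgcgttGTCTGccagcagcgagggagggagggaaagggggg

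The Col3a1 window stands apart from the other 3 in its letters. It is 35.2% G and C, against a median of 52.4% over all windows and 62.8% for Col5a3, 62.4% for Col11a1 and 76.4% for Col5a1. Col3a1 holds CAGAC on each strand, GGAATG on the minus strand (reading CATTCC as printed) and TATAAA, which begins at base -117 counted back from the start, and it holds neither CCAAT nor GGGCGG. Col5a3, Col11a1 and Col5a1 each hold GGGCGG at 2 places. CCAAT is present in Col5a3 and, on the minus strand, in Col11a1, while CAGAC is present on the minus strand in Col11a1 and Col5a1. The Col1a2 window, not printed, holds GGGCGG at 2 places, CAGAC and CCAAT. These are matches of letters in a window, and binding was not measured.

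Levels between genes were compared as TMM-normalized CPM per kb of merged exons. On this scale, the median over the 8 cultures was highest for Col1a1 (1316, range 1049 to 2347), followed by Col1a2 (432, 278 to 735), Col5a2 (258, 215 to 321) and Col3a1 (225, 50.2 to 373). Lower per-kb medians were those of Col5a1 (143, 82.8 to 232), Col12a1 (49.7, 11.2 to 66.4), Col5a3 (12.1, 3.51 to 34.7) and Col11a1 (10.6, 4.63 to 37.4). Of the 7 neighbouring pairs in this order, only Col1a1 over Col1a2 and Col5a1 over Col12a1 had ranges that did not overlap. Col5a2 and Col3a1 exchanged places from culture to culture, with Col5a2 the higher in 4 of 8, and so did Col5a3 and Col11a1 (Col5a3 the higher in 4 of 8). With the length of the longest transcript in place of merged exons, the per-kb medians of Col3a1 (398) and Col11a1 (17.7) came above those of Col5a2 (373) and Col5a3 (13.4). The type I transcripts thus headed the order under either length, with the scarce chains Col5a3 and Col11a1 at its end.

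**Figure D2:**
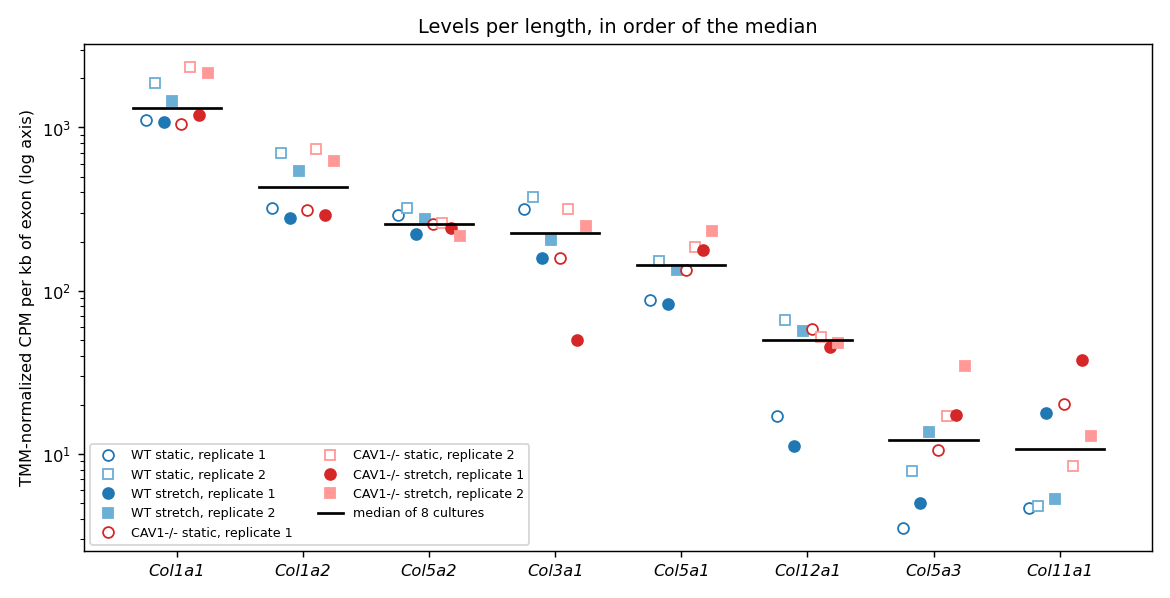
TMM-normalized CPM per kb of merged exons (log axis) of the 8 collagen genes in each culture, static cultures as open and stretched cultures as filled symbols, with bars at the median of 8 cultures. Col1a1 (median 1316) and Col1a2 (432) lead, Col5a3 (12.1) and Col11a1 (10.6) come last, and the single low point of Col3a1 (50.2) is the stretched culture of CAV1-/- replicate 1.

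The comparison of stretched with static cultures asks whether mechanical stretch alone moves the collagen genes. All values given per gene from here on are TMM-normalized CPM without division by length, and are compared between cultures of 1 gene only. The 4 animals split the 8 genes by direction. Col5a3 and Col11a1 were higher in the stretched than in the static culture of all 4 animals (2 of 8 genes, against 14.5% of all genes tested). Col1a2, Col3a1, Col5a2 and Col12a1 were lower on stretch in all 4 (4 of 8, against 16.9% of all genes). A shared direction in all 4 animals, either way, was thus seen in 6 of 8 genes and in 31.3% of all genes.

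**Figure D3:**
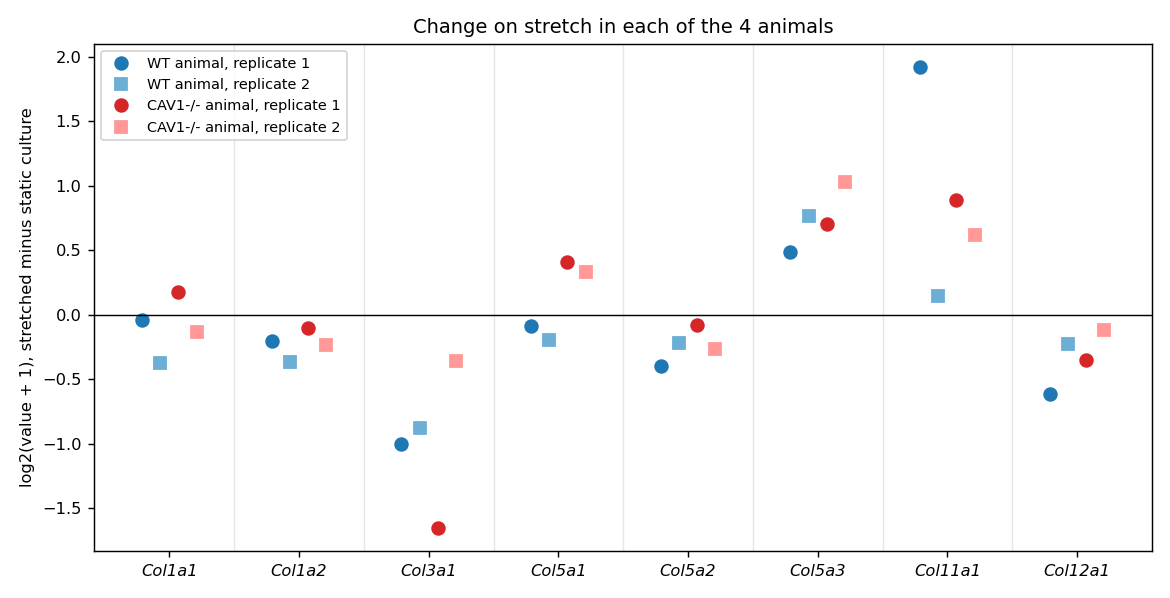
Difference in log2(value + 1) between the stretched and the static culture of each of the 4 animals, for the 8 collagen genes (circles replicate 1, squares replicate 2). Col5a3 and Col11a1 lie above 0 in all 4 animals, Col1a2, Col3a1, Col5a2 and Col12a1 lie below 0 in all 4, and Col5a1 lies below 0 in WT and above 0 in CAV1-/- animals.

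Col1a1 and Col1a2 encode the chains of type I collagen. Col1a1 stood at 7291 and 12305 in the WT static cultures (replicates 1 and 2), 7085 and 9488 in WT stretch, 6884 and 15404 in CAV1-/- static and 7782 and 14066 in CAV1-/- stretch. Col1a2 stood at 3968 and 8712, 3451 and 6766, 3874 and 9138, and 3615 and 7771 in the same order. For both genes the animals numbered replicate 2 were above those numbered replicate 1 in every group, and the static and stretched cultures overlapped. The stretched culture of an animal held 0.771 to 1.13 times the Col1a1 of its static culture and 0.777 to 0.933 times the Col1a2. Type I collagen transcripts therefore differed more between animals than between static and stretched cultures of 1 animal. The animals numbered replicate 2 also held the higher fibroblast marker sums (1136 to 1523, against 526 to 709). The part of these markers in the type I values was not tested.

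Col3a1, the chain of the type III homotrimer, had the lowest ratio of stretched to static level of the 8 genes in all 4 animals. It stood at 3101 and 3660 in WT static, 1550 and 1992 in WT stretch, 1551 and 3127 in CAV1-/- static and 492 and 2432 in CAV1-/- stretch. The WT groups did not overlap, whereas the CAV1-/- groups did. The stretched culture held 0.500 and 0.544 times the static level in the WT animals and 0.317 and 0.778 times in the CAV1-/- animals. The lowest value, 492, belongs to CAV1-/- replicate 1, the animal with the high leukocyte markers, in which the 9 fibroblast markers summed to 526 (static) and 548 (stretch). Of these, Pdgfra stood at 55.4 and 19.3, against 154 to 706 in the other 6 cultures, and Pdgfrb at 69.4 and 123, against 37.2 to 261. The part of these markers in the Col3a1 values was not tested. Without both cultures of that animal, the log2 difference in CAV1-/- cells was -0.36 from the remaining pair, against -1.01 with it.

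The type V chains did not move together. Col5a2 was lower on stretch in every animal, at 2807 and 3076 in WT static, 2126 and 2635 in WT stretch, 2460 and 2480 in CAV1-/- static and 2323 and 2066 in CAV1-/- stretch, with no overlap between static and stretch in either genotype. Col5a3, the scarcest type V chain, was higher on stretch in every animal, at 23.9 and 53.6, 34.0 and 92.0, 72.3 and 115, and 118 and 236 in the same order. Its stretched cultures held 1.42 and 1.72 times the static level in WT and 1.64 and 2.05 times in CAV1-/- animals. The CAV1-/- groups did not overlap, and the WT groups did, with WT replicate 1 the lower animal in both. The smallest Col5a3 value rests on 342 reads, so that counting error was small beside the difference between animals.

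Col5a1, the type V chain found in nearly all type V molecules, was lower on stretch in WT and higher in CAV1-/- animals. It stood at 747 and 1295 in WT static, 703 and 1129 in WT stretch, 1136 and 1564 in CAV1-/- static and 1512 and 1966 in CAV1-/- stretch. Both WT animals were lower on stretch (0.941 and 0.872 times static) and both CAV1-/- animals higher (1.33 and 1.26 times), an arrangement found in 4.87% of all genes (8.98% with opposite directions either way). Static and stretched cultures overlapped within each genotype.

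Col11a1, a chain of type XI collagen, is best known from cartilage. It stood at 59.0 and 60.8 in WT static, 226 and 67.2 in WT stretch, 257 and 107 in CAV1-/- static and 477 and 164 in CAV1-/- stretch. The gain was uneven, 3.84 times in WT replicate 1 and 1.11 times in WT replicate 2, and 1.85 and 1.54 times in the CAV1-/- animals. WT groups did not overlap, and CAV1-/- groups did. Col12a1, the chain of the fibril-associated type XII collagen, stood at 260 and 1012 in WT static, 170 and 865 in WT stretch, 881 and 788 in CAV1-/- static and 691 and 725 in CAV1-/- stretch. Its largest gap was between the WT animals, with replicate 1 the lowest of all 4 animals under both conditions.

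**Figure D4:**
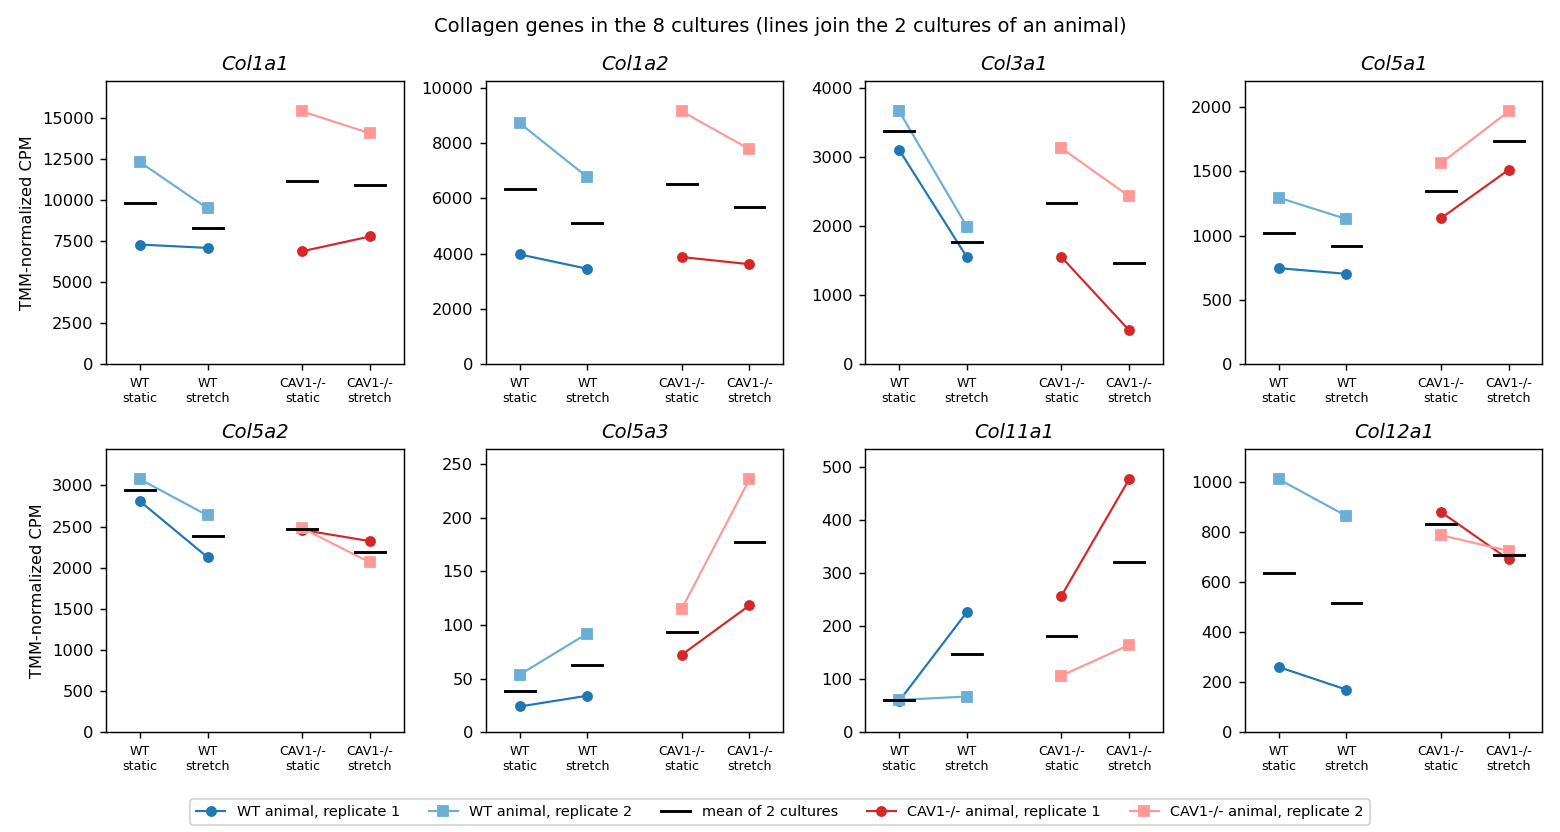
TMM-normalized CPM of the 8 collagen genes in the 8 cultures, each panel with its own axis from 0, lines joining the static and stretched cultures of an animal and bars at the mean of 2 cultures. The lines of Col5a3 and Col11a1 slope up in all 4 animals, those of Col1a2, Col3a1, Col5a2 and Col12a1 slope down, and the distance between animals of a genotype often exceeds the slope.

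Set against the spread between the 2 cultures of a group, which come from 2 animals, none of these differences passed the test. This test leaves the pairing of cultures by animal unused, and tests with the animal as a block follow below. In WT cells, limma called 0 of the 8 genes (adjusted p = 1 for each), where 0.0% of all genes were called. An unadjusted p under 0.05 was reached by 0 of the 8, against 2.27% of all genes. Log2 differences ran from -0.94 (SE 0.74) for Col3a1 to 1.03 (SE 0.76) for Col11a1, with a median of -0.25 against -0.02 over all genes, and 6 of 8 were negative. The values of the others were 0.63 (SE 0.63) for Col5a3, -0.14 (SE 0.37) for Col5a1, -0.21 (SE 0.55) for Col1a1, -0.28 (SE 0.67) for Col1a2, -0.31 (SE 0.20) for Col5a2 and -0.42 (SE 0.88) for Col12a1. Of the 8 genes, 1 had non-overlapping groups with stretch higher (13.9% of all genes did) and 2 with stretch lower (17.2%). The edgeR quasi-likelihood test and DESeq2 on the recovered reads also called 0 of the 8.

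In CAV1-/- cells, limma likewise called 0 of the 8 genes (adjusted p = 1.00 for each, 0.0% of all genes called), and so did edgeR and DESeq2. With limma, 0 of the 8 had an unadjusted p under 0.05, against 2.09% of all genes. Log2 differences ran from -1.01 (SE 0.74) for Col3a1 to 0.87 (SE 0.63) for Col5a3, with 0.75 (SE 0.76) for Col11a1 and 0.37 (SE 0.37) for Col5a1. Those of Col1a1, Col1a2, Col5a2 and Col12a1 lay between -0.23 and 0.02. The median was -0.07, 4 genes were positive and 4 negative. Col5a3 had non-overlapping groups with stretch higher (12.4% of all genes), and Col5a2 and Col12a1 with stretch lower (11.9%).

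With the animal as a block, 0 of the 8 genes were called in WT cells (0.0% of all genes) and 0 of the 8 in CAV1-/- cells (0.00732% of all genes). An unadjusted p under 0.05 in this limma fit was reached by 5 of the 8 in WT cells (14.5% of all genes). In CAV1-/- cells 3 of the 8 reached it (13.3% of all genes). Since the 2 cultures of an animal deviated together, the stretch effect was also averaged over the 4 animals with the animal as a block, a comparison chosen after the values had been seen. Under it, 201 of 13665 genes were called (1.47%), 84 of them higher on stretch (0.615%). Col5a3 was the only one of the 8 that passed, and rose by 0.75 on the log2(value + 1) scale (SE 0.08, adjusted p = 0.0291, limma), in 4 of 4 animals. Col3a1 came next with -0.97 (SE 0.19, adjusted p = 0.0710), then Col12a1 with -0.33 (SE 0.08, adjusted p = 0.110), Col11a1 with 0.89 (SE 0.26, adjusted p = 0.133) and Col5a2 with -0.24 (SE 0.08, adjusted p = 0.165), each in 1 direction in 4 of 4 animals and none past the threshold. Col1a2 (-0.22, SE 0.09, adjusted p = 0.231), Col5a1 (0.11, SE 0.07, adjusted p = 0.368) and Col1a1 (-0.09, SE 0.12, adjusted p = 0.690) were further from it. Mesothelial markers moved in the same comparison, where 2 of the 11 were called lower on stretch, Krt7, a keratin (-0.88, adjusted p = 0.0472, limma), and Upk3b, a uroplakin of the mesothelial surface (-1.04, adjusted p = 0.0327), each in 4 of 4 animals. Of the 11, 7 were negative and 4 positive, with a median of -0.48 against -0.01 over all genes, and edgeR called 0 of them. Their part in the collagen values was not tested.

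Leaving out an animal changed these calls. Col5a3 was no longer called without CAV1-/- replicate 1 (0.83, adjusted p = 0.116) and without CAV1-/- replicate 2 (0.67, adjusted p = 0.124), where 0 and 5 genes of all were called, nor by eBayes without trend (adjusted p = 0.118), where 0 were. It was still called without WT replicate 1 (0.82, adjusted p = 0.0217) and without WT replicate 2 (0.68, adjusted p = 0.0103). Without WT replicate 2, 769 genes were called and 4 of the 8 collagen genes passed, Col11a1 (1.34, adjusted p = 0.000952) and Col3a1 (adjusted p = 0.0448) among them.

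The comparison of CAV1-/- with WT cells asks whether loss of caveolin-1 moves the same genes. Both genotype comparisons share their cultures with the stretch comparisons above. In static cultures, limma called 0 of the 8 genes, where 0.0732% of all genes were called. An unadjusted p under 0.05 was reached by 0 of the 8, against 8.17% of all genes. Col5a3 (1.32, SE 0.63, adjusted p = 0.690) and Col11a1 (1.45, SE 0.76, adjusted p = 0.733) had the highest log2 differences, and both CAV1-/- cultures lay above both WT cultures (2 of 8 genes, against 16.1% of all genes). Col12a1 was at 0.70 (SE 0.88), Col5a1 at 0.44 (SE 0.37), Col1a1 at 0.12 (SE 0.55) and Col1a2 at 0.02 (SE 0.67). Col3a1 (-0.61, SE 0.74) and Col5a2 (-0.25, SE 0.20) were negative, and Col5a2 was lower without overlap (1 of 8, against 20.8%). The median over the 8 genes was 0.28, against -0.01 over all genes.

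Under stretch, 0 of the 8 genes were called by limma (0.0585% of all genes), while 2 had an unadjusted p under 0.05, as did 6.26% of all genes. Of the 8, 0 did with quantile normalization (5.87% of all genes), 1 with edgeR (6.46%), 1 with eBayes without trend (6.50%) and 2 with DESeq2 (7.74%). With limma on only the 4 libraries of the comparison, 1 did (4.68%). The 2 by limma were Col5a1 (0.95, SE 0.37, unadjusted p = 0.0407, adjusted p = 0.745, limma) and Col5a3 (1.56, SE 0.63, unadjusted p = 0.0463, adjusted p = 0.783, limma), and they were also the 2 of 8 genes whose CAV1-/- cultures both lay above both WT cultures (14.6% of all genes). Col11a1 was at 1.17 (SE 0.76), Col12a1 at 0.88 (SE 0.88), Col1a1 at 0.35 (SE 0.55) and Col1a2 at 0.13 (SE 0.67). Col3a1 (-0.68, SE 0.74) and Col5a2 (-0.11, SE 0.20) were again negative, with no gene lower without overlap (15.9% of all genes). The median was 0.62, and edgeR and DESeq2 called 0 of the 8 genes in either genotype comparison. Col5a3 and Col11a1 thus had the highest log2 differences between genotypes with and without stretch, within the spread between animals, and 0 of the 8 genes had all 4 CAV1-/- cultures above all 4 WT cultures (3.86% of all genes).

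The CAV1-/- values of Col11a1 are higher in replicate 1 (257 and 477, against 107 and 164 in replicate 2), whereas those of Col5a3 are higher in replicate 2 (115 and 236, against 72.3 and 118). Replicate 1 is the animal with the high leukocyte markers, and 4 of the 6 smooth muscle markers were highest in both its cultures. Without both cultures of CAV1-/- replicate 1, the log2 difference between genotypes was 0.82 static and 0.41 under stretch for Col11a1, 1.66 and 2.05 for Col5a3, and 0.67 and 1.14 for Col5a1. That of Col3a1 was then -0.11 static and 0.47 under stretch, so that its sign under stretch turned. The positive Col12a1 differences rest on WT replicate 1, without which they were -0.28 static and -0.29 under stretch. CAV1-/- cultures also held the lower mesothelial marker sums. The part of these markers in the collagen values was not tested.

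The genotype by stretch interaction, the difference between the stretch effects of the 2 genotypes, was called by limma for 0 of the 8 genes (adjusted p = 1.00 for each, 0.0% of all genes called). An unadjusted p under 0.05 was reached by 0 of the 8, against 0.483% of all genes. The effect in CAV1-/- minus that in WT ran from -0.28 (SE 1.07) for Col11a1 to 0.51 (SE 0.52) for Col5a1. With the animal as a block, which leaves 2 residual degrees of freedom, the Col5a1 difference kept its size with an SE of 0.13. Its unadjusted p was 0.0068, and it did not pass over all genes (adjusted p = 0.947, limma). In this fit 1 of the 8 genes, Col5a1, had an unadjusted p under 0.05, as did 4.25% of all genes.

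Ratios between collagen transcripts within a culture do not depend on how libraries were scaled. Each ratio was formed from TMM-normalized CPM without division by length and is compared between cultures only. The tests were exact permutation tests over 2 against 2 cultures, for which 0.333 is the smallest p possible. Of 20 tests (5 ratios in 4 comparisons) 11 had groups that did not overlap, each with an exact permutation p of 0.333 (adjusted p = 0.606). That p is also the share of all arrangements of 2 against 2 cultures without overlap. The 20 tests share cultures and genes, and the share of ratios between other genes with groups apart was not computed.

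Col3a1 to Col1a1, the balance of type III to type I, was 0.425 and 0.297 in WT static cultures (replicates 1 and 2), 0.219 and 0.210 in WT stretch, 0.225 and 0.203 in CAV1-/- static and 0.0633 and 0.173 in CAV1-/- stretch. Its groups stood apart in all 4 comparisons, with stretch at 0.602 times static in WT and 0.489 times in CAV1-/-, and CAV1-/- at 0.601 times WT in static culture and 0.488 times under stretch. Both folds with the CAV1-/- stretched cultures rest on replicate 1, without which they were 0.852 times static within CAV1-/- and 0.807 times WT under stretch, values from 1 CAV1-/- animal with no test, chosen after seeing the data. The static genotype fold was then 0.571. The ratios of the WT stretched and CAV1-/- static cultures overlapped.

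Col5a1 to Col5a2 was 0.266 and 0.421 in WT static, 0.331 and 0.428 in WT stretch, 0.462 and 0.630 in CAV1-/- static and 0.651 and 0.952 in CAV1-/- stretch. All 4 CAV1-/- cultures, from 2 animals, exceeded all 4 WT cultures, also from 2 animals, with CAV1-/- at 1.61 times WT in static culture and 2.09 times under stretch. With 1 animal left out, the static fold ran from 1.28 (without WT replicate 1) to 2.03 (without WT replicate 2). Under stretch it ran from 1.73 (without CAV1-/- replicate 2) to 2.53 (without CAV1-/- replicate 1). Col5a3 to Col5a1 was 0.0320 and 0.0414, 0.0484 and 0.0815, 0.0636 and 0.0738, and 0.0783 and 0.120 in the same order, higher on stretch without overlap in WT (1.72 times) and in CAV1-/- (1.41 times).

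The type I ratio was steadier. Col1a1 to Col1a2 lay between 1.40 and 2.15 in the 8 cultures, and its groups stood apart only between CAV1-/- static (1.78 and 1.69) and CAV1-/- stretch (2.15 and 1.81). Per kb of merged exons the same ratio was 2.66 to 4.08, and per kb of the longest transcript 1.26 to 1.94. Col12a1 to Col1a1 ran from 0.0240 to 0.128 with overlap in all 4 comparisons.

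**Figure D5:**
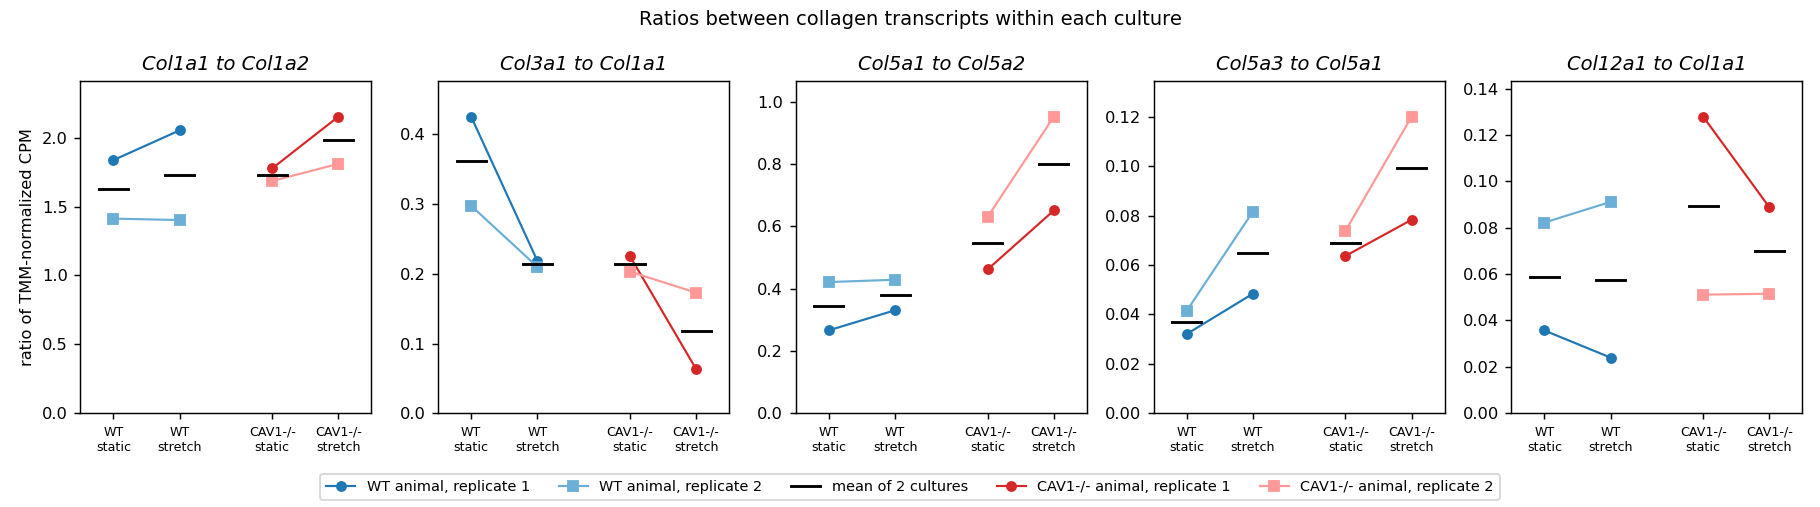
Ratios of TMM-normalized CPM between pairs of collagen transcripts within each of the 8 cultures, lines joining the cultures of an animal and bars at the mean of 2 cultures. Col3a1 to Col1a1 goes from 0.425 and 0.297 in WT static to 0.0633 and 0.173 in CAV1-/- stretch cultures, and Col5a1 to Col5a2 is higher in all 4 CAV1-/- cultures.

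Across the 8 cultures, which share animals in pairs and of which the stretched ones are the deeper, the genes varied along a few lines. As a description, Pearson's r of log2(value + 1) was 0.95 between Col1a1 and Col1a2, 0.93 between Col5a1 and Col5a3 and -0.86 between Col3a1 and Col11a1. Among all genes, the profiles most like Col5a3 were those of Sorcs2, Arl4c and BC027231 (r 0.98 to 0.97). Those most like Col11a1 were Mgme1, Lap3 and Pcolce2 (0.99), the last an enhancer of procollagen C-proteinase. Dtymk, Syce2 and Dtd1 (0.98) were closest to Col3a1. For the type I chains they were Cxcl12, Usp36 and Patz1 (0.98, Col1a1) and Fam69b, Tcf3 and Cap2 (0.99, Col1a2). Suv420h1, Pop1 and Fibin (0.99 to 0.98) were nearest to Col5a1, Cacna1a, Irs1 and Trmt44 (0.98 to 0.97) to Col5a2 and Sash1, P2ry2 and Epb4.1l3 (0.99 to 0.97) to Col12a1. The mean profile of the 8 genes was closest to En1, Zfp503, Plekha6, Cdkn2a and Jarid2 (0.98 to 0.97).

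Genes that make, bind or regulate collagen were followed in 5 lists. In the 5 comparisons of the design, limma called 0 of their 72 genes and edgeR 0. With limma, 0 to 5 of them had an unadjusted p under 0.05, against 0.483% to 8.17% of all genes. DESeq2 called 2 in each genotype comparison (where it called 2.26% of all genes in static culture and 1.73% under stretch) and 0 elsewhere. Over the 4 animals with the animal as a block (201 genes called of all, 1.47%), the 20 genes of collagen folding and hydroxylation included 1 call, Plod2, a lysyl hydroxylase whose product shapes collagen cross-links, which rose by 0.71 (adjusted p = 0.0480). It stood at 327 and 159 in WT static, 728 and 214 in WT stretch, 506 and 319 in CAV1-/- static and 773 and 498 in CAV1-/- stretch. Of the 5 genes of these lists named as called over the 4 animals, edgeR also called Tll1, Tgm2 and Postn, and not Plod2 or Itga2. In the folding list 17 of 20 log2 differences were positive, with a median of 0.14 against -0.01 over all genes. The most abundant of its genes, Sparc, Serpinh1 (the collagen chaperone HSP47) and P4hb, held 4859 to 7732, 2413 to 3262 and 1265 to 1735.

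Of 13 genes of procollagen processing and cross-linking, Tll1, a tolloid-like proteinase that trims procollagen, rose by 0.74 (adjusted p = 0.0291, limma) and Tgm2, a transglutaminase, fell by 0.40 (adjusted p = 0.0352). Tll1 was at 50.6 and 24.1, 63.4 and 36.7, 62.6 and 39.3, and 119 and 86.6 in WT static, WT stretch, CAV1-/- static and CAV1-/- stretch. Tgm2 was at 400 and 67.3, 235 and 41.6, 590 and 44.8, and 550 and 43.2, an animal difference far wider than the change on stretch. The list's median was 0.19, with 8 genes positive and 5 negative.

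Among 20 fibril-binding proteins, Postn (periostin) rose by 1.25 (adjusted p = 0.0327, limma) and Itga2, the collagen-binding integrin chain, by 0.87 (adjusted p = 0.0421). Postn stood at 28.6 and 414 in WT static, 106 and 777 in WT stretch, 86.8 and 153 in CAV1-/- static and 225 and 278 in CAV1-/- stretch. Itga2 was low throughout, at 0.700 and 0.565, 2.27 and 1.97, 4.20 and 2.67, and 7.57 and 5.91 in the same order, where 3 reads correspond to 0.146 to 0.308. The list's median was -0.15, and its most abundant gene Fn1 (fibronectin) ran from 9031 to 22899. Over the 4 animals, none of 13 TGF-beta ligands, receptors, Smads and targets was called (0 of 13 by limma and edgeR, 7 at an unadjusted p under 0.05, as were 2872 of the 13665 genes, median 0.11), nor any of the 6 other collagens of these classes in the table (0 of 6 by both, 2 at an unadjusted p under 0.05 in limma, median -0.04), of which Col16a1 was the most abundant (129 to 359).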

How the data were processed

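Libraries of polyA RNA from 8 cultures were sequenced as single reads. For the deposited table the authors removed adapters with Cutadapt, quantified genes against the GRCm38 transcriptome with RSEM and applied the TMM scaling of edgeR. The deposited signal is TMM-normalized CPM for 13687 genes, in which 100% of values were whole multiples of the value of 1 read (relative tolerance 1e-06), so that reads could be recovered. The floor of 3 reads, 0.146 to 0.308 TMM-normalized CPM, covers counting error only.

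Values were taken as log2 with a pseudocount of 1. A gene was tested if 2 or more libraries reached a value of 1, which removed 22 and kept 13665. The limma package (3.58.1, under R 4.3.3) fitted all 8 libraries with 1 mean for each group, using eBayes with an intensity trend and Benjamini-Hochberg adjustment over all genes. There were 4 residual degrees of freedom, and a gene was called at an adjusted p under 0.05. The labels give an animal number, and static and stretched cultures of 1 animal deviated together (r = 0.70 in WT and 0.85 in CAV1-/-). With the animal as a block 2 residual degrees of freedom remained. Ratios within a culture were tested by exact two-sided permutation tests (scipy 1.17.1). edgeR (4.0.16) and DESeq2 (1.42.0) were run on the recovered reads. The limma and edgeR tests were run on simulated counts with the same spread for all genes and no difference between animals. That check does not measure their power in these data. Of the gene identifiers, 13597 were found in GENCODE M21.

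The collagens and lists were chosen with earlier results of these data known, and the comparison over 4 animals after seeing the values. Named genes are the 8 collagens, Cav1, genes of the lists that were called or, otherwise, up to 3 of the most abundant per list, and for likeness the 3 profiles with the highest correlation (5 for the mean profile). Pdgfra, Pdgfrb and Mfap4 were named after their values were seen. Calb2, Pecam1, Tie1, Clec3b and Aif1 of the marker lists were not analysed here.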

Additional observations from a re-analysis of the deposited data

Results flagged for a closer look

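Col5a1 stood out because the 2 genotypes moved in opposite directions on stretch. The stretched culture held 0.941 and 0.872 times the static level in the WT animals and 1.33 and 1.26 times in the CAV1-/- animals, so that the stretch effect in CAV1-/- minus that in WT was 0.51 on the log2 scale (SE 0.52). The interaction did not pass the test of limma (adjusted p = 1.00, and 0.947 with the animal as a block). The same arrangement, lower in both WT and higher in both CAV1-/- animals, was found in 4.87% of all genes tested, and opposite directions either way in 8.98%.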

How the results depend on the processing

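None of the 8 collagen genes was called in the 5 planned comparisons under 10 of the 11 other settings, and of 432 single-gene values 424 kept their direction and side of the threshold. The exception was the replicate number as a block in the genotype comparisons, which pairs different animals (deviations correlated at 0.52 static and 0.48 under stretch over only 2 pairs): with this replicate block 1 collagen gene, Col5a3, passed in static culture (adjusted p = 0.0346) and 1, again Col5a3, under stretch (adjusted p = 0.0408), where 246 and 110 genes of all were called, against 10 and 8 without it. Of the 72 other genes that make, bind or regulate collagen, this block called 4 in static culture (Itga2, Fmod, Itga10 and Tgfbr1) and 1 under stretch (Tgfbr1, higher in CAV1-/-, adjusted p = 0.0344 static and 0.0485 under stretch), and DESeq2 called Itga2 in both, Smad6 in static culture (lower, adjusted p = 0.00223) and Mia3 under stretch. DESeq2 called 309 and 237 genes of all in these comparisons, and edgeR 2 and 6. The animal as a replicate block changed no call in the stretch comparisons or the interaction. The 6 values that changed sign were Col1a1 on stretch in CAV1-/- (edgeR -0.029, DESeq2 -0.032), Col3a1 in the interaction (edgeR 0.26, DESeq2 0.24) and, with quantile normalization, Col1a2 in the static genotype comparison (-0.084) and Col5a2 in the interaction (-0.11). The median over the 8 genes moved with quantile normalization to -0.17 in WT stretch, 0.18 in the static genotype comparison and 0.12 in the interaction, turned from -0.07 to 0.016 in CAV1-/- stretch and went from -0.16 to -0.091 over the 4 animals, and to 0.43 with edgeR and 0.43 with DESeq2 in the genotype comparison under stretch. Over the 4 animals, 0 collagen genes were called by eBayes without trend and 0 without the block, 0 to 4 with an animal left out. The causes were not tested.

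Leaving out 1 culture sets different animals against each other, and leaving out 1 animal keeps the other's own pair in a stretch comparison. Together they changed the sign of 62 of 480 values. The median over the 8 genes ranged over -0.56 to 0.27 in WT stretch, -0.18 to 0.29 in CAV1-/- stretch, -0.27 to 0.71 in the static genotype comparison, -0.063 to 0.73 in the genotype comparison under stretch, -0.24 to 0.66 in the interaction. The log2 differences that changed sign ranged as follows. For WT stretch these were Col1a1 -0.59 to 0.17, Col1a2 -0.85 to 0.28, Col5a1 -0.54 to 0.25, Col5a3 -0.077 to 1.33, Col12a1 -1.59 to 0.75. For CAV1-/- stretch these were Col1a1 -0.56 to 0.60, Col1a2 -0.79 to 0.45, Col3a1 -2.16 to 0.14, Col11a1 -0.012 to 1.52. For the static genotype comparison these were Col1a1 -0.46 to 0.70, Col1a2 -0.60 to 0.64, Col12a1 -0.28 to 1.67. For the genotype comparison under stretch these were Col1a1 -0.075 to 0.78, Col1a2 -0.42 to 0.69, Col3a1 -1.83 to 0.47, Col5a2 -0.27 to 0.043, Col12a1 -0.29 to 2.05. For the interaction these were Col1a1 -0.35 to 0.81, Col1a2 -0.50 to 0.74, Col3a1 -1.22 to 1.08, Col5a2 -0.016 to 0.29, Col5a3 -0.47 to 0.94, Col11a1 -1.17 to 0.61, Col12a1 -0.99 to 1.35. The interaction has no value from only the 4 libraries of a comparison.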
